A study of Mus musculus with 8 samples.

Results

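LKB1 is the kinase that switches on AMPK, the energy sensor of the cell, and the genes described here are those of the LKB1 complex (Stk11, Strada and Cab39), the AMPK subunits (Prkaa1, Prkaa2, Prkab1, Prkab2, Prkag1 and Prkag2) and Camkk2, another kinase that activates AMPK. They were chosen by gene symbol, 10 of the 39527 genes in the table, and all 10 were found. RNA was measured in group 2 innate lymphoid cells (ILC2s), tissue-resident lymphocytes that secrete type 2 cytokines. The cells were sorted from epididymal visceral adipose tissue of male wild-type C57BL/6 mice that were 14 weeks old. There were 4 libraries from mice on a high-fat diet (H1 to H4) and 4 from mice on a normal diet (N1 to N4), and each diet had been fed for 8 weeks, starting when the mice were 6 weeks old. Going by its title, the study is about LKB1 and mitochondria in these cells, and the comparison asks whether the transcripts of the LKB1 and AMPK axis differ between the diets. Whether each library is 1 animal or a pool is not stated, so p-values here measure the spread between libraries and that spread may be technical.

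LKB1 works in a complex with the pseudokinase STRAD, which activates it, and the scaffold MO25, which stabilises the active form. The complex phosphorylates the activation loop of the AMPK catalytic subunit, and CaMKK2 phosphorylates the same loop in response to calcium. AMPK itself is a trimer of a catalytic alpha subunit, a scaffolding beta subunit that also binds glycogen and a gamma subunit that senses AMP, ADP and ATP. Each of these subunits is encoded by paralogous genes, so cells can hold different AMPK assemblies. When active, AMPK restrains fat and sterol synthesis and mTORC1 and favours autophagy and mitochondrial quality control. These activities are set by phosphorylation, which RNA levels do not measure.

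The sequences of the paralogs show how far reads of a pair could be told apart, which was not tested. The most similar 60-base windows of their coding sequences (GENCODE M21 transcripts, GRCm38), numbered from the first base of the start codon, are given here with the bases that differ in capitals. Prkaa1 lies on chromosome 15 (coding bases 36 to 95) and Prkaa2 on chromosome 4 (coding bases 3 to 62), and the windows differ at 3 bases.
Prkaa1: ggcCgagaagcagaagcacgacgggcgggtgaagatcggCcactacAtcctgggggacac
Prkaa2: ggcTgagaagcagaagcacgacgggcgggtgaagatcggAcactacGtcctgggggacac
Prkab1 lies on chromosome 5 (coding bases 340 to 399) and Prkab2 on chromosome 3 (coding bases 337 to 396), and the windows differ at 6 bases.
Prkab1: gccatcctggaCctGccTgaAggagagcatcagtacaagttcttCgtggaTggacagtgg
Prkab2: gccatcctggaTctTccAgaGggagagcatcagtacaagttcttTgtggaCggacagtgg
Between any annotated transcripts of a pair, the longest identical run was 35 bases for Prkaa1 and Prkaa2, 23 bases for Prkab1 and Prkab2 and 15 bases for Prkag1 and Prkag2. Read length and the handling of reads that match several places are not stated in the labels.

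The values are FPKM, that is, fragments divided by gene length and by library size, and from their steps 7767805 to 13586768 whole reads per library were recovered, with the fewest in H2. Across the 11483 genes tested, libraries correlated at 0.957 to 0.983 within the high-fat diet, 0.972 to 0.978 within the normal diet and 0.952 to 0.974 between the diets. All 13 ILC2 markers checked were present, and their summed level was 4701.5 to 5520.4 FPKM in high-fat libraries, below the 6182.2 to 7535.0 FPKM of normal-diet libraries. Of these markers Gata3, Il2ra and Il5 fell (limma adjusted p = 0.0449, 0.0152 and 7.6e-05), with Gata3 at 565.7 to 714.5 FPKM in high-fat libraries and at 835.2 to 1144.7 FPKM in normal-diet libraries. The markers did not move as 1: Il7r was at 203.3 to 271.6 FPKM in high-fat libraries, above the 149.9 to 199.5 FPKM of normal-diet libraries (log2 fold change 0.31, limma adjusted p = 0.293), and Areg and Thy1 had fold changes of 0.33 and 0.09 (adjusted p = 0.417 and 0.876). The summed level of 3 mast cell markers was 315.0 to 1979.5 FPKM in high-fat libraries (lowest in H2), against 641.4 to 1188.8 FPKM in normal-diet libraries. That of 6 T cell markers was 166.5 to 480.4 FPKM in high-fat libraries, again lowest in H2, against 180.0 to 298.8 FPKM. For 4 endothelial markers the sum was 22.5 to 130.0 FPKM in high-fat libraries, against 13.6 to 18.2 FPKM, with Fabp4 the only marker of another cell type on these lists to pass the test (higher). Without Fabp4, which adipocytes also express, the sum was 12.8 to 26.1 FPKM in high-fat libraries and overlapped the 11.9 to 16.4 FPKM of normal-diet libraries. Most of that sum was Pecam1 (10.6 to 25.1 FPKM in high-fat libraries, against 11.3 to 16.1 FPKM). Kdr and Cdh5 were too low to be tested but were higher without overlap in high-fat libraries. Kdr was at 0.694 to 1.82 FPKM there, against 0.0451 to 0.351 FPKM, and Cdh5 at 0.333 to 0.416 FPKM, against 0.0241 to 0.315 FPKM. For 3 stromal markers the sum was 2.44 to 20 FPKM in high-fat libraries, against 1.52 to 7.70 FPKM. The sums for 3 B cell, 3 NK cell, 6 macrophage and 3 adipocyte markers were at or below 9.57 FPKM in every library, and among the markers on all these lists Cd8a, Eomes, C1qa, C1qb, Adipoq and Plin1 were at 0 in at least 1 library. The part of such cells in the values below was not tested. In these bulk samples, fewer cells of a type and less RNA per cell cannot be told apart.

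None of the 9 members that could be tested passed, where 2.86% of all tested genes did, 1.88% lower and 0.975% higher (limma on log2(FPKM + 1), Benjamini-Hochberg adjusted p under 0.05 over all tested genes). Prkaa2 lay under the filter of 1 FPKM in at least 4 libraries and was not tested. The lowest adjusted p was that of Stk11 (0.131), and 2 members had an unadjusted p under 0.05, a mark that 18.1% of all tested genes reached. The median log2 fold change of the 9 members was 0.00, with 5 above 0 and 4 below 0, and that of all tested genes was -0.02. Standard errors of the members ran from 0.14 to 0.18 on the log2 scale, against a median of 0.18 over all tested genes. A negative log2 fold change means lower in the high-fat libraries, and the log2(FPKM + 1) scale understates the change of low genes.

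**Figure D1:**
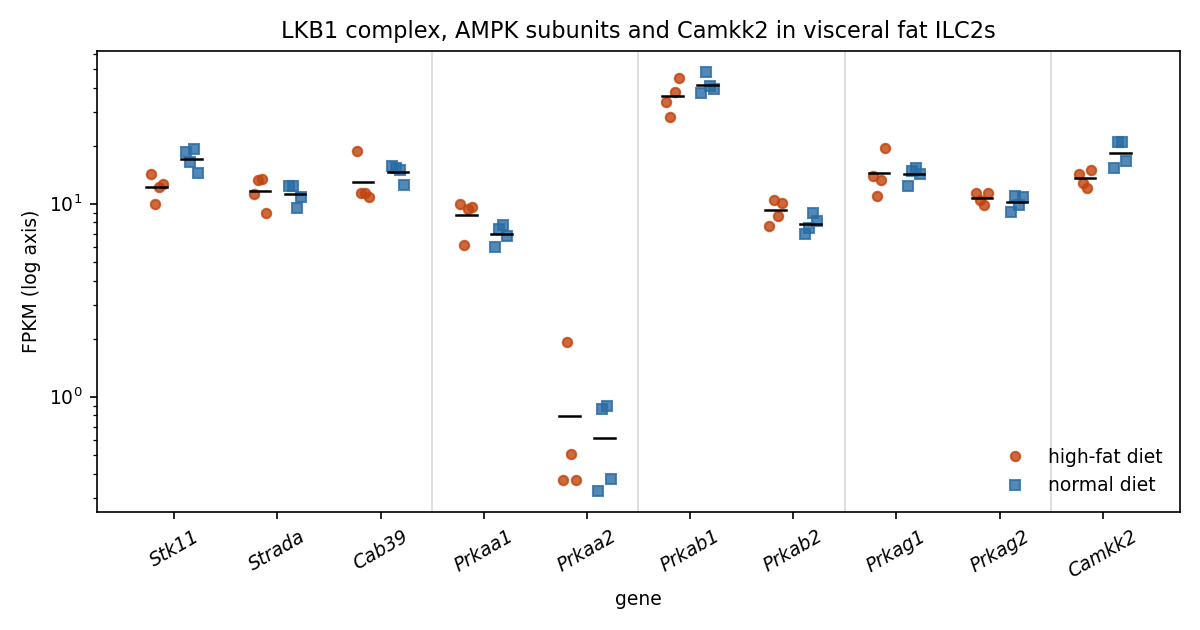
FPKM (log axis) of each gene in the 4 high-fat libraries (circles, left of each pair) and the 4 normal-diet libraries (squares, right), with bars at the means. Prkab1 stands highest, at 28.1 to 48.3 FPKM, Prkaa2 lowest, at 0.324 to 1.92 FPKM, and the diets do not overlap for Stk11 and Camkk2.

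In the LKB1 complex, the kinase gene itself was lower in every high-fat library than in any normal-diet library, while its partners overlapped. Stk11 (ENSMUSG00000003068, plus strand of chromosome 10, 80115803 to 80130682 in mm10), which encodes LKB1, was at 14.3, 9.97, 12.2 and 12.6 FPKM in H1 to H4 and at 18.5, 16.5, 19.2 and 14.4 FPKM in N1 to N4. The diets came closest at H1 and N4 and did not overlap. The means were 12.3 ± 1.76 FPKM on the high-fat diet and 17.1 ± 2.19 FPKM on the normal diet (SD, n = 4 each), a ratio of 0.715. Its log2 fold change of -0.46 (SE 0.16) did not pass the test (limma adjusted p = 0.131). Its unadjusted 95% interval was -0.79 to -0.12, a fold of 0.579 to 0.918. Stk11 shares 232 exonic bases with Cbarp on the opposite strand, which was at 1.47 to 3.31 FPKM, and the library kit does not mark strand.

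Strada, which encodes the STRAD pseudokinase alpha, was at 11.2, 13.2, 13.5 and 8.91 FPKM in H1 to H4 and at 12.3, 12.4, 9.48 and 10.9 FPKM in N1 to N4. These ranges lay over each other. The log2 fold change was 0.04 (95% interval -0.31 to 0.39, limma adjusted p = 0.932). Strada (ENSMUSG00000069631, chromosome 11, 106163330 to 106202168, minus strand) shares 158 exonic bases with Ccdc47 on the same strand, a gene at 45.2 to 65.2 FPKM, so some reads of the pair could be split by the counting.

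Cab39, which encodes the scaffold MO25 alpha, was at 18.7, 11.3, 11.3 and 10.8 FPKM in H1 to H4 and at 15.7, 15.4, 15 and 12.5 FPKM in N1 to N4. H1 stood above every other library of either diet, and H2, H3 and H4 stood below every normal-diet library. With H1 the log2 fold change was -0.19 (95% interval -0.57 to 0.19, limma adjusted p = 0.634), and without 1 library it ran from -0.36 (without H1, adjusted p = 0.262) to -0.11 (without H4, adjusted p = 0.826). The gene (ENSMUSG00000036707) lies on chromosome 1 (85793441 to 85851576, plus strand) and shares no exonic base with another annotated gene.

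The paralogs of these partners were taken from a list of pathway genes. Cab39l, which encodes MO25 beta, averaged 56.4 ± 4.97 FPKM on the high-fat diet and 56.1 ± 7.48 FPKM on the normal diet (log2 fold change 0.01, limma adjusted p = 0.975). In deposited FPKM Cab39l was 3.37 to 5.03 times Cab39 in high-fat libraries, against 3.18 to 4.11 times in normal-diet libraries. The steps of its values give a length of 1195 bases, however, where the union of its annotated exons is 6841 bases. With annotated exon lengths for both genes the ratio was 1.57 to 2.19 in high-fat libraries and 1.16 to 1.96 in normal-diet libraries, so Cab39l stood above Cab39 in every library on either length. Stradb, the paralog of Strada, averaged 5.53 ± 1.03 FPKM on the high-fat diet and 5.20 ± 0.762 FPKM on the normal diet, and made up 32.4% ± 7.63 and 31.7% ± 5.05 of the summed FPKM of the pair (SD, n = 4 each).

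Camkk2, which encodes the calcium-dependent activator of AMPK, was at 14.2, 12.8, 12.1 and 15 FPKM in H1 to H4 and at 15.3, 20.8, 20.8 and 16.7 FPKM in N1 to N4. As for Stk11, no high-fat library reached the lowest normal-diet library, here with H4 and N1 closest. The means were 13.5 ± 1.33 and 18.4 ± 2.83 FPKM on the high-fat and normal diets (SD, n = 4 each), a ratio of 0.736. Its log2 fold change of -0.41 (SE 0.15, 95% interval -0.73 to -0.08) did not pass the test (limma adjusted p = 0.169). Stk11 and Camkk2 were the 2 of 9 tested members whose diets did not overlap, both lower on the high-fat diet, where 6.76% of all tested genes were lower without overlap and 11.1% had no overlap in either direction. Once a factor that recurs every 10 genes in the deposited values was divided out, Camkk2 overlapped, its highest high-fat library (H4) at 16.1 FPKM standing above N1, while Stk11 came to 10.4 to 14.3 FPKM in high-fat libraries, against 14.3 to 19.1 FPKM in normal-diet libraries, without overlap although H1 and N4 round to the same value. Camkk1, a paralog of Camkk2 that was picked out after its values were seen, was at 3.94 ± 0.651 and 6.71 ± 1.91 FPKM on the high-fat and normal diets, also without overlap (log2 fold change -0.62, limma adjusted p = 0.0897). That Camkk1 stood below Camkk2 rests on the deposited lengths. With annotated exon lengths and the factor divided out it was 0.931 to 1.23 times Camkk2 in high-fat libraries and 1.09 to 1.58 times in normal-diet libraries. Camkk2 (ENSMUSG00000029471) lies on chromosome 5 (122731170 to 122779409, minus strand).

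**Figure D2:**
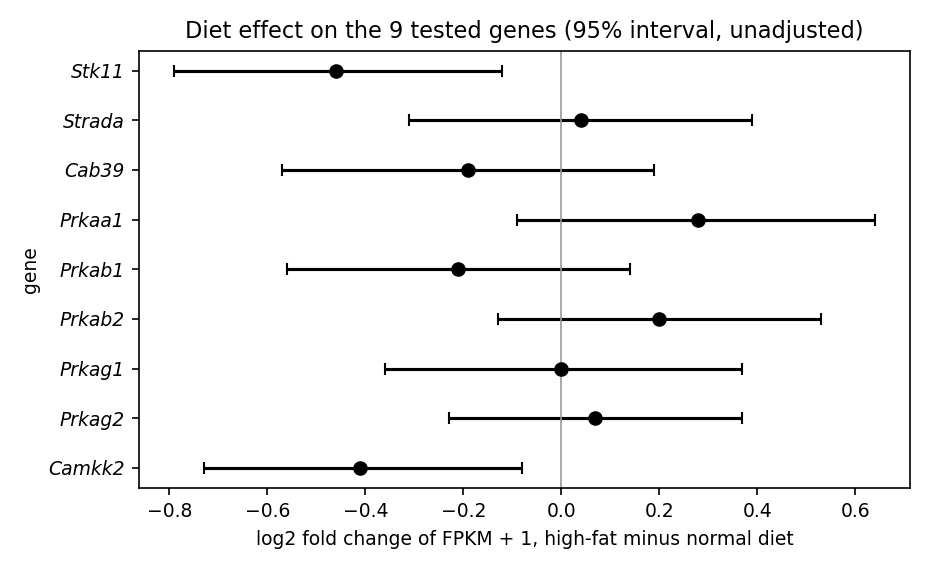
Log2 fold change of FPKM + 1 (horizontal axis, high-fat minus normal diet) for the 9 tested genes, with unadjusted 95% intervals from limma as bars. The intervals of Stk11 (-0.79 to -0.12) and Camkk2 (-0.73 to -0.08) lie below 0 and the others span 0, and none passed after adjustment over all tested genes.

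Among the catalytic subunits, Prkaa1, which encodes alpha 1, was the higher in every library. It was at 10, 6.12, 9.37 and 9.64 FPKM in H1 to H4 and at 5.98, 7.43, 7.79 and 6.78 FPKM in N1 to N4. H1, H3 and H4 stood above every normal-diet library, and H2 stood below all of these but N1. The means were 8.79 ± 1.80 FPKM on the high-fat diet and 6.99 ± 0.796 FPKM on the normal diet (SD, n = 4 each). The log2 fold change was 0.28 (95% interval -0.09 to 0.64, limma adjusted p = 0.428), and 0.42 without H2 (adjusted p = 0.152). Prkaa1 (ENSMUSG00000050697) lies on chromosome 15 (5143861 to 5181899, plus strand).

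Prkaa2, which encodes alpha 2, the catalytic form known from muscle and liver, was listed at 0.370, 1.92, 0.504 and 0.370 FPKM in H1 to H4 and at 0.324, 0.859, 0.895 and 0.375 FPKM in N1 to N4. These values rest on 14, 51, 15 and 14 recovered reads in H1 to H4 and on 11, 25, 30 and 13 in N1 to N4. H2 alone passed 1 FPKM, and the exact 95% Poisson interval of its reads, 38.0 to 67.1, lay above those of H1 (7.65 to 23.5), H3 (8.40 to 24.7) and H4 (7.65 to 23.5) in spite of its smaller total. Such intervals cover counting error only. The diets overlapped, with means of 0.790 ± 0.753 and 0.613 ± 0.306 FPKM on the high-fat and normal diets. H2 also had the lowest mast cell and T cell sums given above, and the highest sum of the 3 adipocyte markers, at 1.79 FPKM against 0.323 to 0.713 FPKM in the other high-fat libraries. The adipocyte marker Adipoq was at 0 in H2, however. On the normal diet the order was the opposite. N2 and N3, with the higher Prkaa2, had adipocyte sums of 0.0564 and 0.096 FPKM, and N1 and N4 had 0.83 and 0.777 FPKM. H2 was not set apart by adipocyte markers alone. Among the high-fat libraries its NK cell sum was also highest, at 2.62 FPKM against 0.415 to 1.38 FPKM. Its B cell (3.03 FPKM) and stromal (3.87 FPKM) sums lay among the others, and its macrophage sum (6.37 FPKM) was lowest. Single low genes highest in H2 included Kdr (1.82 FPKM), Csf1r (1.02 FPKM) and Acacb (1.03 FPKM), but C1qb (0.429 FPKM) was lowest there. The part of other cell types or of depth in the Prkaa2 level of H2 was not tested. Prkaa2 (ENSMUSG00000028518) lies on chromosome 4 (105029874 to 105109890, minus strand).

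Of the beta subunits, Prkab1 was the most abundant member of the set in every library in deposited FPKM. Prkab1, which encodes beta 1, was at 33.5, 28.1, 37.7 and 44.6 FPKM in H1 to H4 and at 37.3, 48.3, 40.6 and 39.4 FPKM in N1 to N4, above 79.8% of the tested genes on its mean. The diets overlapped through H3 and H4 (log2 fold change -0.21, 95% interval -0.56 to 0.14, limma adjusted p = 0.537). Without 1 library it ran from -0.32 (without H4) to -0.10 (without H2), and without both H2 and N2 it was -0.03. Prkab2, which encodes beta 2, was at 7.68, 10.5, 8.67 and 10.1 FPKM in H1 to H4 and at 6.98, 7.48, 8.91 and 8.10 FPKM in N1 to N4. H2 and H4 stood above all normal-diet libraries, and H1 and H3 lay among them (0.20, 95% interval -0.13 to 0.53, adjusted p = 0.534, and 0.12 to 0.28 over 18 other settings). Prkab1 (ENSMUSG00000029513) lies on chromosome 5 (116013586 to 116024508, minus strand) and Prkab2 (ENSMUSG00000038205) on chromosome 3 (97658193 to 97673812, plus strand).

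In deposited FPKM the gamma subunits lay closer to each other than the alpha or beta subunits did, and both overlapped between the diets. Prkag1, which encodes gamma 1, was at 14.0, 11, 13.3 and 19.5 FPKM in H1 to H4 and at 12.3, 14.8, 15.3 and 14.3 FPKM in N1 to N4. H4 was the highest and H2 the lowest of the 8 libraries, and the log2 fold change was 0.00 (95% interval -0.36 to 0.37, limma adjusted p = 0.997). With the recurring factor divided out, N2 (17.1 FPKM) stood above H4 (16.5 FPKM). Prkag2, which encodes gamma 2, was at 11.4, 10.4, 9.85 and 11.3 FPKM in H1 to H4 and at 9.09, 11, 9.84 and 10.8 FPKM in N1 to N4. Of the 10 members it varied least within a diet in deposited FPKM, with an SD of 7.10% of the mean on the high-fat diet and 8.74% on the normal diet. With the recurring factor divided out it was at 11.1 ± 1.56 FPKM on the high-fat diet. There Prkaa1 (8.47 ± 1.04), Prkab1 (34.8 ± 4.19) and Prkab2 (8.94 ± 1.06) varied less for their means. The log2 fold change of Prkag2 was 0.07 (95% interval -0.23 to 0.37, adjusted p = 0.847, and 0.02 to 0.14 over 18 other settings). Prkag3, the gamma gene known from skeletal muscle, was at 0 in 4 libraries and at most at 0.301 FPKM in the others. Prkag1 (ENSMUSG00000067713, chromosome 15, 98812797 to 98831521, minus strand) shares 950 exonic bases with the antisense gene B130046B21Rik, whose value in the table is below 0 in at least 1 library. Prkag2 (ENSMUSG00000028944, chromosome 5, 24862744 to 25100642, minus strand) shares 142 and 795 exonic bases with the antisense genes Prkag2os1 and Prkag2os2, which also have values below 0.

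Within each family, the balance of the paralogs was taken as the log2 ratio of their FPKM in each library (each plus 0.1). For alpha, the log2 ratio of Prkaa2 to Prkaa1 was -4.43, -1.63, -3.97 and -4.37 in H1 to H4 and -3.84, -2.97, -2.99 and -3.86 in N1 to N4. H2 stood above all other libraries, and H1, H3 and H4 below all normal-diet libraries. The means were -3.60 ± 1.33 and -3.41 ± 0.50 on the high-fat and normal diets (SD, n = 4 each), a difference of -0.19 (two-sided exact permutation test, p = 0.771). It was -0.84 without H2 (exact permutation p = 0.0857), 0.09 without H1 and 0.07 without H4, so single libraries set its size and sign. Prkaa2 made up 3.56%, 23.8%, 5.10% and 3.70% of the summed alpha FPKM in H1 to H4, and 5.14%, 10.4%, 10.3% and 5.24% in N1 to N4.

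For beta, the log2 ratio of Prkab2 to Prkab1 was -2.11, -1.42, -2.11 and -2.14 in H1 to H4 and -2.40, -2.68, -2.18 and -2.27 in N1 to N4. Every high-fat library stood above every normal-diet library. The means were -1.94 ± 0.35 on the high-fat diet and -2.38 ± 0.22 on the normal diet (SD, n = 4 each), a difference of 0.44. The two-sided exact permutation test gave p = 0.0286, the smallest that 4 libraries against 4 allow, and 0.0857 when adjusted over the 3 balances, which did not pass. Prkab2 made up 18.7%, 27.1%, 18.7% and 18.4% of the summed beta FPKM in H1 to H4, and 15.8%, 13.4%, 18% and 17.1% in N1 to N4, so that H4 and N3 were close and H2 stood apart. Without H2 the difference in log2 ratio was 0.26 (exact permutation p = 0.0857). With the recurring factor divided out it was 0.40 and the diets overlapped (exact permutation p = 0.114), with Prkab2 at 18.3% to 24.8% in high-fat libraries, against 12.5% to 19.9% in normal-diet libraries.

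For gamma, the log2 ratio of Prkag2 to Prkag1 was -0.29, -0.08, -0.43 and -0.78 in H1 to H4 and -0.44, -0.42, -0.63 and -0.40 in N1 to N4. The high-fat libraries reached both above and below the normal-diet libraries. The difference of the means was 0.08 (two-sided exact permutation test, p = 0.743 and 0.771 after adjustment over the 3 balances). With the recurring factor divided out it was 0.19 (exact permutation p = 0.229), and -0.03 without H2 and 0.20 without H4 on the deposited values. Prkag2 made up 43.0% ± 4.77 of the summed gamma FPKM on the high-fat diet and 41.7% ± 1.85 on the normal diet (SD, n = 4 each).

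These shares depend on the gene length that the authors divided by, which is not given and was read from the steps of the values. For Prkaa1 that length was 4664 bases, close to the 4655 bases of its annotated exons. For Prkaa2 it was 2826 bases against 7969 annotated, for Prkab1 1531 against 3066, for Prkab2 4267 against 5096, for Prkag1 1580 against 2175 and for Prkag2 2332 against 6480. With annotated exon lengths and without the recurring factor, Prkaa2 made up 1.32% to 8.90% of alpha over the 8 libraries, Prkab2 19.3% to 35.6% of beta and Prkag2 24.1% to 31.9% of gamma. On either length Prkaa1, Prkab1 and Prkag1 were the larger partner in every library. A ratio of FPKM compares transcripts per length and says nothing of the protein in the complex.

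**Figure D3:**
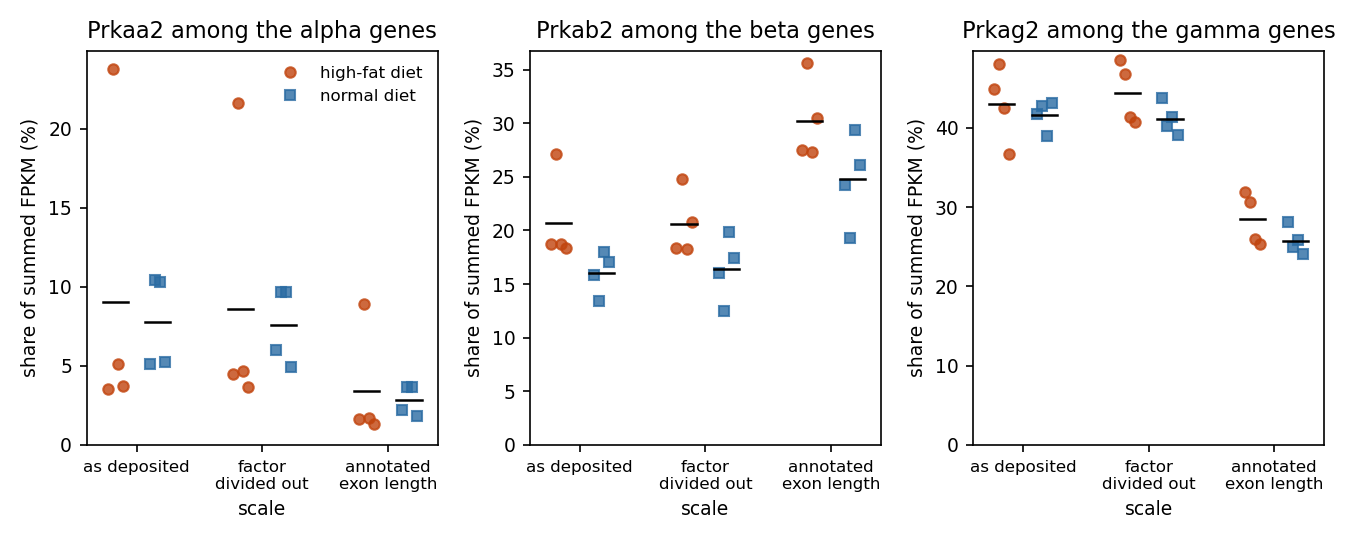
Share of the summed FPKM of each subunit family (vertical axes, percent, from 0) held by Prkaa2, Prkab2 and Prkag2 in each high-fat library (circles, left) and normal-diet library (squares, right), with bars at the means, on the deposited values, with the recurring factor divided out and with annotated exon lengths. The shares of Prkaa2 and Prkag2 are lower with annotated lengths and that of Prkab2 higher. The gap between the diets for Prkab2 on the deposited values (18.4% to 27.1% against 13.4% to 18%) closes to an overlap with the factor divided out. The annotated-length values also have the factor divided out, and a fixed length cannot itself open or close such a gap.

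Summed over each family in deposited FPKM, alpha came to 8.04 to 10.4 FPKM in high-fat libraries, against 6.30 to 8.68 FPKM in normal-diet libraries. Beta came to 38.6 to 54.6 FPKM in high-fat libraries, against 44.2 to 55.8 FPKM, and gamma to 21.6 to 30.8 FPKM, against 21.7 to 25.7 FPKM. Alpha was the lowest of the families and beta the highest in every library, also with annotated exon lengths and the recurring factor divided out. On that scale alpha came to 6.00 to 9.77 FPKM, gamma to 12.2 to 16.6 FPKM and beta to 22.8 to 34.7 FPKM over the 8 libraries.

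In order of mean FPKM on the high-fat diet, Prkab1 (36.0 ± 6.96) came first and did not overlap Prkag1 (14.5 ± 3.62). Camkk2, Cab39, Stk11, Strada, Prkag2, Prkab2 and Prkaa1 followed, each overlapping the gene before it, and Prkaa2 came last without overlap. On the normal diet Prkab1 (41.4 ± 4.82) was again first and Prkaa2 last, and between them stood Camkk2, Stk11, Cab39, Prkag1, Strada, Prkag2, Prkab2 and Prkaa1. There the only neighbours among these that did not overlap were Prkag2 (10.2 ± 0.890) and Prkab2 (7.87 ± 0.830). With annotated exon lengths and the recurring factor divided out, Camkk2 averaged 3.45 ± 0.461 FPKM on the high-fat diet and 4.56 ± 0.611 FPKM on the normal diet. Its exons cover 10921 bases against a deposited length of 2800, so its place in this order rests on the length used. The same holds for Stk11, whose exons cover 4580 bases against a deposited length of 1768.5. On that scale Stk11 was at 4.61 ± 0.697 and 6.71 ± 0.806 FPKM on the high-fat and normal diets (SD, n = 4 each). Prkaa1 was there at 8.48 ± 1.04 and 7.19 ± 1.03 FPKM, above every other member but Prkab1 and Prkag1 on both diets.

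No gene of the wider LKB1 and AMPK list passed. Of 62 genes on the list 50 were tested, 10 lay under the filter and 2 (Lamtor3 and Lamtor5) had values below 0, and the median log2 fold change was -0.02, as over all tested genes. Among the regulators, Hsp90ab1 and Cdc37, chaperones that stabilise LKB1, were the most abundant, Hsp90ab1 at 559.6 ± 47.0 and 670.3 ± 49.0 FPKM on the high-fat and normal diets (log2 fold change -0.26, limma adjusted p = 0.327, and -0.04 under quantile normalization) and Cdc37 at 219.3 ± 33.7 and 248.2 ± 41.9 FPKM (-0.18, adjusted p = 0.613, and 0.00 under quantile normalization). The lowest adjusted p of the list was 0.0581, that of Lamtor2, a subunit of the Ragulator scaffold of the lysosome, at 139.7 ± 31.4 and 218.6 ± 27.3 FPKM (-0.66). Lamtor2 was picked out after its values were seen, as were Fnip1, a partner of folliculin that AMPK phosphorylates (-0.40, adjusted p = 0.189), and Tbc1d4, a regulator of glucose transporter traffic (0.31, adjusted p = 0.468). With Camkk1 and Hsp90ab1 these were the 5 list genes whose diets did not overlap, 4 lower and 1 higher, beside 6.76% and 4.31% of all tested genes.

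None of the 5 tested enzymes of adenylate balance passed. Among them Adk, which makes AMP from adenosine, averaged 42.4 ± 15.3 FPKM on the high-fat diet and 52.1 ± 13.2 FPKM on the normal diet (log2 fold change -0.34, limma adjusted p = 0.608, and -0.04 without H2). None of the 20 tested AMPK substrates passed. Becn1, an autophagy initiator, averaged 66.7 ± 8.33 and 81.8 ± 16.5 FPKM on the high-fat and normal diets (-0.28, adjusted p = 0.427, and -0.42 to -0.11 over 18 other settings), and Crtc2, a CREB coactivator, 66.1 ± 10 and 80.6 ± 18.4 FPKM (-0.27, adjusted p = 0.488, and -0.43 to -0.07). The AMPK-related kinases that LKB1 also activates had 8 tested genes and no call, with Sik1 at 113.2 ± 7.74 and 115.6 ± 24.5 FPKM (-0.01, above 0 under 8 other settings) and Sik2 at 31.5 ± 0.821 and 39.6 ± 7.81 FPKM (-0.30, adjusted p = 0.326).

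**Figure D4:**
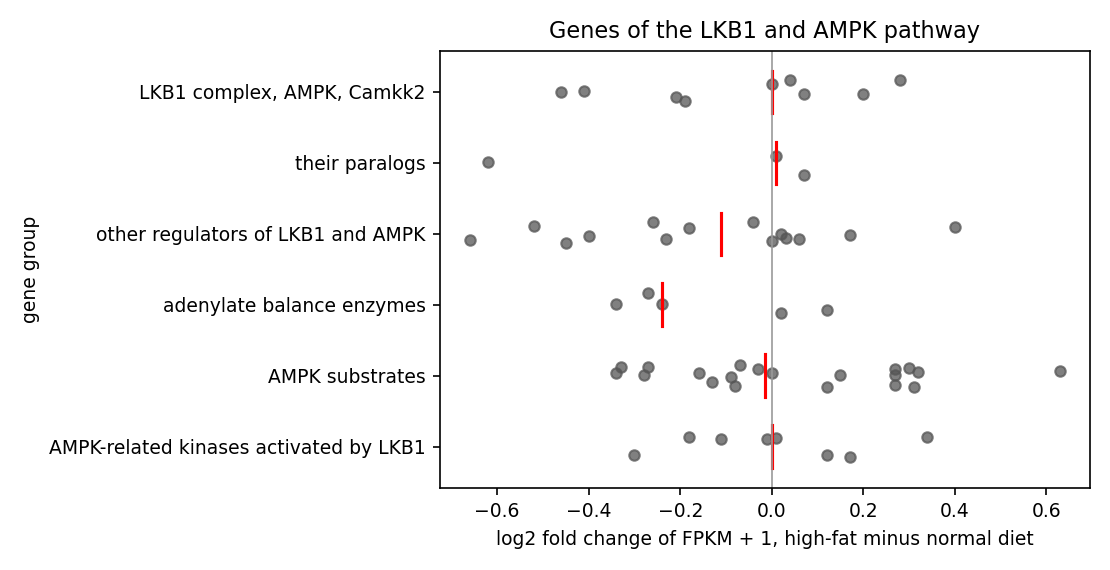
Log2 fold change of FPKM + 1 (horizontal axis, high-fat minus normal diet) of each tested gene, 1 point a gene, by group, with red bars at the group medians. The 9 members span -0.46 to 0.28 and the 50 other genes -0.66 to 0.63, on either side of 0, and none passed the test.

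The genes most like Stk11 and Prkaa1 were taken as the 5 with the highest Pearson r of log2(FPKM + 1) over the 8 libraries, among 10177 tested protein-coding genes. For Stk11 they were Zfp281 (r = 0.961), Nab1 (0.957), Irak1 (0.956), Siah1a (0.951) and Pogz (0.949), and their log2 fold changes ran from -0.56 to -0.38, none past the threshold. With the recurring factor divided out Nab1 (adjusted p = 0.0283) and Irak1 (0.0409) passed, and with voom on recovered reads Nab1 (0.0166), Irak1 (0.0343) and Pogz (0.0495) did. For Prkaa1 they included Lpin1 (r = 0.993), Adcy4 (0.972), Bnip3l (0.970) and Krcc1 (0.964), and the log2 fold changes of these 4 were 0.14 to 0.32. As the highest of so many, these r are a description of 8 libraries that share depth and the recurring factor. They take in the diet difference, so fold changes of the same sign as Stk11 or Prkaa1 come with the choice. Nab1 also stands at the factor position of Stk11. With the factor divided out the r were 0.889 to 0.949 for the genes like Stk11 and 0.671 to 0.910 for these 4 like Prkaa1. Within the diets they were 0.842 to 0.927 and 0.959 to 0.991.

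No tested member passed under any of 18 other settings, and neither did Prkaa2 under the 3 that could take it. Over the 18 settings the log2 fold change of Stk11 lay between -0.54 and -0.37, with adjusted p between 0.0536 and 0.258. With limma voom on the recovered reads, a setting chosen after seeing the data, its adjusted p was 0.0579, where 3.39% of 15502 genes were called lower. Camkk2 lay between -0.49 and -0.33 and Prkaa1 between 0.21 and 0.45.

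**Figure D5:**
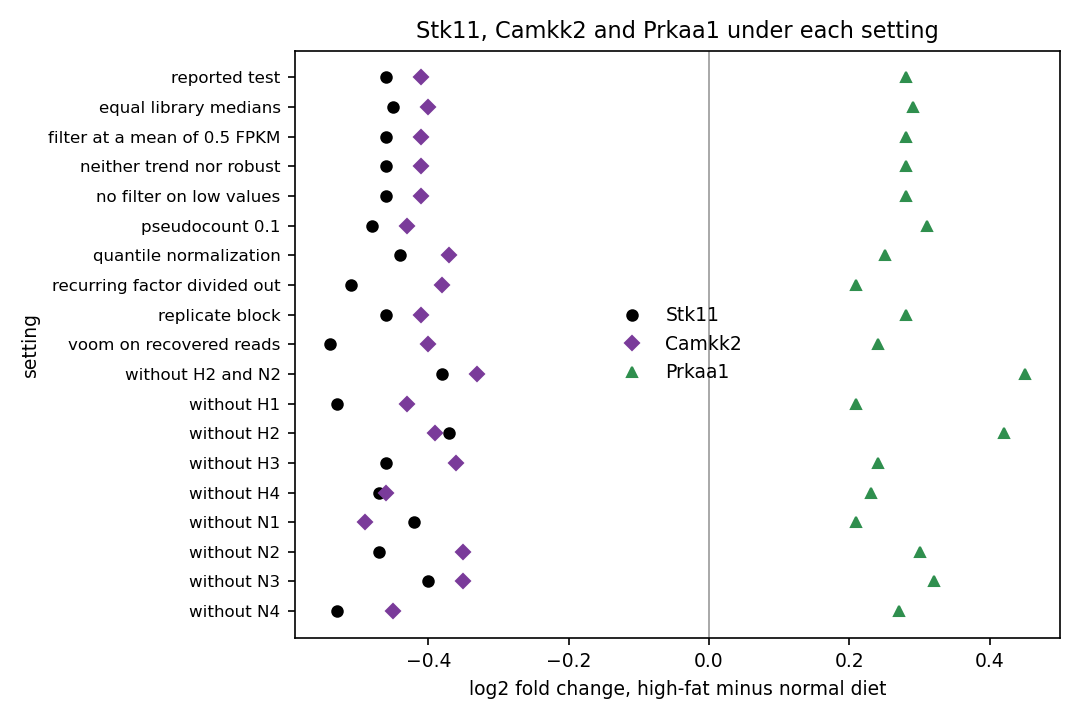
Log2 fold change (horizontal axis, high-fat minus normal diet) of Stk11 (circles), Camkk2 (diamonds) and Prkaa1 (triangles) in the reported test and under each of 18 other settings (vertical axis). Stk11 and Camkk2 stay below 0 (-0.54 to -0.37 and -0.49 to -0.33) and Prkaa1 above 0 (0.21 to 0.45).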

How the data were processed

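The table holds FPKM deposited by the authors, per the file headers, for 39527 genes and 8 libraries. Per the labels' protocols, RNA came from a Trizol extraction, full-length cDNA from a SMART-Seq kit and libraries from a transposase kit, which does not mark strand. Of the tools and builds, HISAT2, Cufflinks and mm10 are known from the submitters' processing notes, without version or annotation. In 14605 genes a value is below 0. These genes were left out of the reported test, as plain FPKM cannot be negative, and no member is among them. Their recovered reads are counted in the library totals given above (2.02% of reads in N2 to 2.9% in H2). The filter for voom, set on recovered reads, did not remove them. Sorted by identifier, genes carry a factor in the value of 1 read that recurs every 10 genes (0.863 to 1.185). The reported test keeps it, and an alternative divides it out. Whole reads, and the smallest gene length in steps of 0.5 that gives them, were recovered for 100% of 24107 genes above 0 (relative tolerance 1e-06). Half-base lengths are needed because 17.1% of 8433 genes with at least 50 reads in each library otherwise had even reads throughout.

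Genes at 1 FPKM or more in at least 4 libraries were tested with limma 3.58.1 in R 4.3.3 on log2(FPKM + 1), with diet as the only term, trend and robust options, two-sided p-values and Benjamini-Hochberg adjustment at 0.05. Balances were tested by exact permutation. The limma fit and the read recovery were tested on simulated data. The members, lists and tests were chosen with earlier results of these data known. Named genes are the members, any called gene and the 2 most abundant tested genes of each pathway group, and the 5 genes nearest to Stk11 and Prkaa1. Of the genes so named 2 are not reported here. Coordinates are from GENCODE M21 (mm10).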

Additional observations from a re-analysis of the deposited data

Results flagged for a closer look

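In groups of 4 libraries, a value was looked at again where its gap to the nearest other library exceeded Dixon's 95% critical share of the range. Of 26 groups checked (10 genes and 3 balances in each diet) 5 met this, all on the high-fat diet, where chance gives about 1 in 20. Of these, 4 were in H2, the library with the fewest reads. The groups are not independent, as each balance is a ratio of genes that were also checked on their own. In H2 Prkaa2 was highest, at 1.92 FPKM, where H1, H3 and H4 had 0.370 to 0.504 FPKM, and Prkaa1 was lowest, at 6.12 FPKM, where they had 9.37 to 10 FPKM. The log2 ratio of Prkaa2 to Prkaa1 was accordingly highest in H2, at -1.63 against -4.43 to -3.97, and that of Prkab2 to Prkab1 was also highest there, at -1.42 against -2.14 to -2.11. Cab39 was highest in H1, at 18.7 FPKM against 10.8 to 11.3 FPKM. With the recurring factor divided out 4 groups met the criterion. Cab39 in H1 and, in H2, Prkaa2 and the alpha balance (-1.81 against -4.39 to -4.07) remained among them. Prkaa1 in H2 (7.10 FPKM against 8.46 to 9.62 FPKM) and the beta balance in H2 (-1.59 against -2.14 to -1.92) no longer did, and Prkab1 in N2 was added (56 FPKM against 36.7 to 39.3 FPKM in the other normal-diet libraries).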

How the results depend on the processing

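No member passed in the 18 other settings, of which limma voom on recovered reads was chosen after seeing the data. The number of called genes was 328 in the reported test (112 higher, 216 lower), 226 higher and 204 lower under quantile normalization, 242 higher and 216 lower without both H2 and N2, 130 with no filter, 571 with the recurring factor divided out, 798 with voom and 129 to 536 without 1 library (200 without H1, 536 without H2, 129 without H3, 129 without H4, 182 without N1 and 176 without N2). The beta balance, 0.44, was 0.40 with the factor divided out (exact permutation p = 0.114). It was 0.16 without both H2 and N2, where the exact permutation test cannot go below 0.1. Annotated lengths, an alternative also chosen after seeing the data, were applied to values with the factor already divided out. A fixed length per gene hardly moves a difference of log2 ratios, so the 0.40 found there (exact permutation p = 0.114) is no separate check. Without 1 library the beta balance ran from 0.26 to 0.5 (exact permutation p up to 0.114, above 0.05 without H2, N1 or N2). The alpha balance then ran from -0.84 to 0.09 and the gamma balance from -0.03 to 0.2. As a share, the alpha difference was 1.28 percentage points, the opposite sign to -0.19, and the gamma balance was -0.01 without H2 and N2. The cause was not tested. Directions near 0 turned for Prkaa2 (0.09 without the filter, -0.06 with voom), Strada (-0.02, -0.03 and -0.03 without H2, H3 or N3), Prkag1 (-0.05 with the factor divided out and with voom, -0.14 to 0.12 without 1 library), Cab39l (-0.04 to 0.07 without 1 library), Stradb (-0.01 to 0.18 without 1 library), Cdc37 (0.00 under quantile normalization) and Sik1 (0.00 at equal library medians, 0.15 under quantile normalization, 0.05 with the factor divided out and with voom, and -0.12 to 0.09 without 1 library).

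Libraries of the diets share replicate numbers only: same-numbered libraries correlated at -0.25 to 0.08 in their deviations from the diet means, and 0 of 4 high-fat libraries correlated best with their own number. With the replicate number as a block 191 genes were called and 0 members, and the paired beta balance had p = 0.125 (0.44, exact sign-flip permutation), the smallest that 4 pairs allow. The planned edgeR test was not run, as the table holds no count column. For Prkaa2, at 11 to 51 reads a library, depth limits what can be seen.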

Other observations

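Stk11, Prkab1 and Prkag1 stand at the same position of the factor that recurs every 10 genes, so the deposited values of all 3 carry 1.185 in H4 and 0.863 in N2. Cab39 and Camkk2 share another position, with 1.185 in N3. The factor moved the log2 difference between the diets by 0.06 for Stk11, Prkab1 and Prkag1, by 0.09 for Prkab2 and by -0.03 for Camkk2.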
